A study of Mus musculus with 36 samples.

Results

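The aminoacyl-tRNA synthetases of the mouse heart were followed while an Akt1 transgene was switched on and off. The rule took genes by name, as those whose probe sets on the paired Affymetrix chips 430A and 430B carry 1 platform symbol made of a capital letter and "ars", "ars1" or "ars2", together with Eprs, Farsa and Farsb, and the set was proposed with earlier results of these data known. It gave 35 of the 18194 genes on the chips. Of these, 19 encode cytosolic enzymes and 16, with names ending in 2, encode mitochondrial enzymes. The 35 genes had 73 probe sets, of which 66 passed the filter on dim probe sets, and each gene kept at least 1.

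An aminoacyl-tRNA synthetase joins an amino acid to the tRNA that carries the matching anticodon, so that each codon is read as the right amino acid. Mammalian cells keep separate nuclear genes for the enzymes of the cytosol, which supply the ribosomes that make most proteins, and for those of the mitochondrion, which supply the translation of the few proteins of the respiratory chain encoded by mitochondrial DNA. Gars and Kars are exceptions, because each of them encodes the glycine or lysine enzyme of both compartments. Several cytosolic enzymes sit together in a multisynthetase complex, and many cytosolic synthetase genes are known targets of the transcription factor ATF4 in the amino acid response.

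RNA was taken from 18 hearts of male Tet-myrAkt1/MHC-tTA mice, called DTG in the sample titles, with 1 mouse per heart. The tTA transactivator switches on the Tet-controlled transgene for myristoylated Akt1, a form of the kinase that is held at the membrane, and the promoter name in the labels has lost its first letter before MHC. All groups carry both transgenes, and no animals without them were analysed here. Uninduced hearts came from mice aged 12 weeks, before Akt1 was induced (n = 4). Early-induced hearts had 2 weeks of Akt1 at 14 weeks of age (n = 4). Early-repressed hearts had 2 weeks of Akt1 followed by 2 days of repression, at 14 weeks and 2 days (n = 4). Late-induced hearts had 6 weeks of Akt1 at 18 weeks (n = 3), and late-repressed hearts had 6 weeks of Akt1 followed by 2 weeks of repression, at 20 weeks (n = 3). Age therefore changes with the state of the transgene, and age and induction cannot be told apart.

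Signals are the deposited MAS5 values on a linear scale, and log2 changes were fitted after a small offset was added. The transgene check used the Akt1 probe set 1425711_a_at, which averaged 548, 2878, 718, 2365 and 753 signal units in the 5 groups in the order above. A second Akt1 probe set (1416657_at) was lower in late-induced than in uninduced hearts (-0.54 log2 units, adjusted p = 0.0236). Every one of the 7 cardiomyocyte markers listed, such as Myh6 and Tnnt2, had a tested probe set. Only Ryr2 was called against uninduced hearts, higher in early-induced (0.90, adjusted p = 0.000217) and in late-induced hearts (0.62, adjusted p = 0.00377). In these comparisons 6.59% and 15.7% of all genes were called. The other cardiomyocyte markers stood at -0.46 to -0.07 in late-induced hearts. The third late-induced heart stood apart in RNA quality, with a 3′ to 5′ signal ratio for beta-actin of 3.71 on chip 430A, against 0.952 to 1.92 in the other hearts. The third and the fourth uninduced hearts had Xist signals of 5412.5 and 3271.3, against 136.2 to 289.2 in the other hearts, although every mouse is labelled male. For the synthetase genes, calls lost without these hearts are given with and without them. Calls of the other genes named here were not examined without these hearts.

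Cytosolic synthetase genes made up most of those that rose after 6 weeks of Akt1. In late-induced against uninduced hearts, 7 of 19 cytosolic genes rose (Aars, Eprs, Gars, Lars, Mars1, Nars and Wars) and Kars fell, while of 16 mitochondrial genes Lars2 rose and Iars2 fell (limma, Benjamini-Hochberg adjusted p under 0.05). By the same test, 15.7% of all 14650 genes were called, 7.58% higher and 8.14% lower. Each gene is represented by its brightest tested probe set, on chip 430A where it has one there. The median fitted log2 change was 0.43 over the cytosolic genes and -0.07 over the mitochondrial genes, beside -0.05 over all genes. The change was above 0 in 16 of 19 cytosolic and 7 of 16 mitochondrial genes, against 45.6% of all genes. In bulk heart RNA, fewer cells of a type and less RNA per cell cannot be told apart.

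The chips differed in how much was called, and the mitochondrial genes were spread evenly over them. Of the mitochondrial representatives 8 were on chip 430A and 8 on chip 430B, whereas 18 of the 19 cytosolic ones were on chip 430A. Among genes represented on chip 430A, 21% were called in this comparison, 9.34% higher and 11.7% lower, against 6.61% on chip 430B. On chip 430A alone the cytosolic median was 0.42, with 6 genes higher and Kars lower, and the mitochondrial median was -0.25, with no gene higher and Iars2 lower. Over all genes of that chip the median was -0.08. The 8 mitochondrial genes on chip 430B had a median of 0.09.

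Medians over the genes were also taken in each heart. Relative to the mean of the uninduced hearts, the median log2 level of the cytosolic genes was 0.54, 0.28 and 0.52 in the 3 late-induced hearts, against -0.15 to 0.05 in the uninduced hearts. The early-induced hearts lay between them, at 0.13 to 0.22. The early-repressed hearts were at -0.13 to -0.04 and the late-repressed hearts at -0.05 to 0.03, which is within the range of the uninduced hearts. The mitochondrial median was -0.16 to -0.0041 in late-induced hearts, against -0.12 to 0.12 in uninduced hearts, and these ranges overlap. The cytosolic minus the mitochondrial median was 0.45 to 0.62 in late-induced hearts, above every other heart, the highest of which was an early-induced heart at 0.23. The SD within groups of this difference, pooled, was 0.12.

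**Figure D1:**
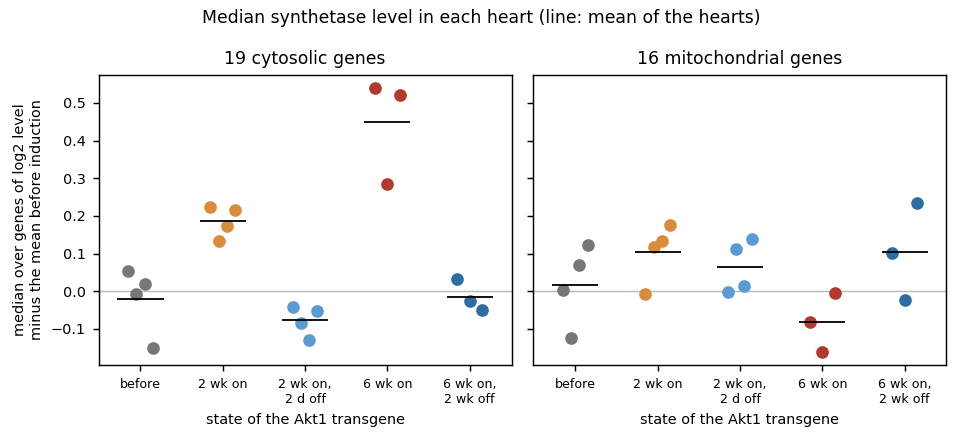
Median log2 level of the 19 cytosolic (left) and 16 mitochondrial (right) synthetase genes in each heart, relative to the mean of the uninduced hearts. The x axis gives the state of the Akt1 transgene in time order, points are hearts and the line is the mean of a group; the late-induced hearts lie at 0.28 to 0.54 on the left and at -0.16 to -0.0041 on the right.

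The smaller of these changes depended on single hearts or on scaling. Without the third late-induced heart, Aars, Eprs, Gars, Mars1, Nars and Wars were called higher and no gene lower, and without the uninduced hearts with Xist signal Aars, Eprs, Gars, Lars2, Nars and Wars were called higher and none lower. Scaling the arrays to a common median moved the median change of all tested probe sets to 0.07, against -0.08 on the deposited scale, and turned 1868 higher and 2493 lower probe sets (5.65% and 7.54% of those tested, 13.2% in all) into 2821 and 1178. Under it the cytosolic median was 0.61 and the mitochondrial median turned to 0.09, with 11 genes called higher and neither Kars nor Iars2 called lower.

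Fewer synthetase genes were called at the early time point. In early-induced against uninduced hearts, Aars and Hars rose and no synthetase gene fell, while 6.59% of all genes were called, 3.69% higher and 2.9% lower. The median log2 change was 0.21 for cytosolic and 0.09 for mitochondrial genes, beside -0.02 for all genes. At an unadjusted p under 0.05, 10 of 35 genes were higher and 0 lower, against 10.7% of all genes higher and 19.7% in either direction. Aars overlapped between the groups and lost its call in 11 of 18 alternative settings, and without the uninduced hearts with Xist signal neither gene was called, at 0.34 for Aars (adjusted p = 0.404) and 0.48 for Hars (adjusted p = 0.195).

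The further change between the time points was tested directly. In late-induced against early-induced hearts, Aars, Eprs, Gars, Nars, Wars and the mitochondrial Pars2 rose and Kars, Iars2 and Rars2 fell, while 5.17% of all genes were called, 2.35% higher and 2.82% lower. The median log2 change was 0.25 for cytosolic and -0.15 for mitochondrial genes, beside -0.03 for all genes. With arrays scaled to a common median, 6 genes were called higher and 0 lower. Aars and Nars kept their calls in this comparison under each of 16 alternatives, whereas Wars lost its call under 11, Gars under 10 and Kars under 12 of these 16, Iars2 under 8 of 16, Rars2 under 7 of 16 and Pars2 under 8 of 15. Without the third late-induced heart the changes of Wars (0.42, adjusted p = 0.0510), Kars (-0.32, adjusted p = 0.198), Iars2 (-0.46, adjusted p = 0.0941) and Rars2 (-0.42, adjusted p = 0.105) were not called.

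Several cytosolic synthetases fell within 2 days of early repression. By their representative probe sets, Aars, Farsb, Hars, Lars, Nars and Rars fell in early-repressed against early-induced hearts. The mitochondrial Rars2 fell too, and no synthetase gene rose by its representative. The other Aars probe set (1423685_at) overlapped, at 798.7, 948.3, 748.3 and 786.3 in early-repressed hearts, against 697.6, 572.9, 835.6 and 876.3. So did the other Nars probe set (1428666_at), at 1281, 1388, 1141 and 1373, against 878.9, 1492, 1139 and 1180. The other Hars probe set (1417024_at) was lower in every early-repressed heart than in any early-induced heart. Among all genes 10.6% were called, 5.23% higher and 5.36% lower. Of the 66 tested synthetase probe sets, 1 was called higher and 11 lower, against 5.29% and 4.44% of all tested probe sets. The median log2 change was -0.29 for cytosolic and -0.03 for mitochondrial genes, beside -0.0013 for all genes. Farsb, a subunit of the cytosolic phenylalanine enzyme and the only called gene past the limit of 16 described heart by heart, had a change of -0.56 (adjusted p = 0.0437). Of its other tested probe sets, 1423708_a_at overlapped between the groups, and 1423709_s_at was lower in every early-repressed heart than in any early-induced heart. The calls of Hars, Nars, Rars and Rars2 held under each of 17 alternatives, whereas Farsb lost its call under 9 of them, Aars under 6 and Lars under 1. In early-repressed against uninduced hearts, no synthetase gene was called by limma, while 3.81% of all genes were. At an unadjusted p under 0.05, 3 were higher and 3 lower, or 6 of 35, against 18% of all genes.

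Late repression gave the most synthetase calls of the 7 comparisons. In late-repressed against late-induced hearts, 10 cytosolic genes fell (Aars, Eprs, Gars, Iars, Lars, Mars1, Nars, Qars, Rars and Wars) and Kars rose, and of the mitochondrial genes Pars2 fell and Iars2 rose. These calls are by representative probe sets. The other Nars probe set (1428666_at) overlapped, at 1453, 1141 and 1323 in late-repressed hearts, against 1805, 1666 and 808.6. So did the other probe sets of Eprs. The other Aars probe set (1423685_at) was lower in every late-repressed heart than in any late-induced heart. Among all genes 12.7% were called, 7.19% higher and 5.53% lower, and on chip 430A 17.7%. In 13 of 19 cytosolic and 4 of 16 mitochondrial genes these groups had no overlap, against 27.6% of all genes. The median log2 change was -0.49 for cytosolic and 0.20 for mitochondrial genes, beside 0.03 for all genes. With only the hearts of these groups in the fit, the calls of Aars, Eprs, Lars and Nars remained. Under that setting the calls over all 33084 tested probe sets went from 3605 to 933. In late-repressed against uninduced hearts, no synthetase gene was called by limma, while 2.71% of all genes were. At an unadjusted p under 0.05, 3 were higher and 1 lower, or 4 of 35, against 16.2% of all genes. The comparisons that share a group of hearts are not independent of each other.

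**Figure D2:**
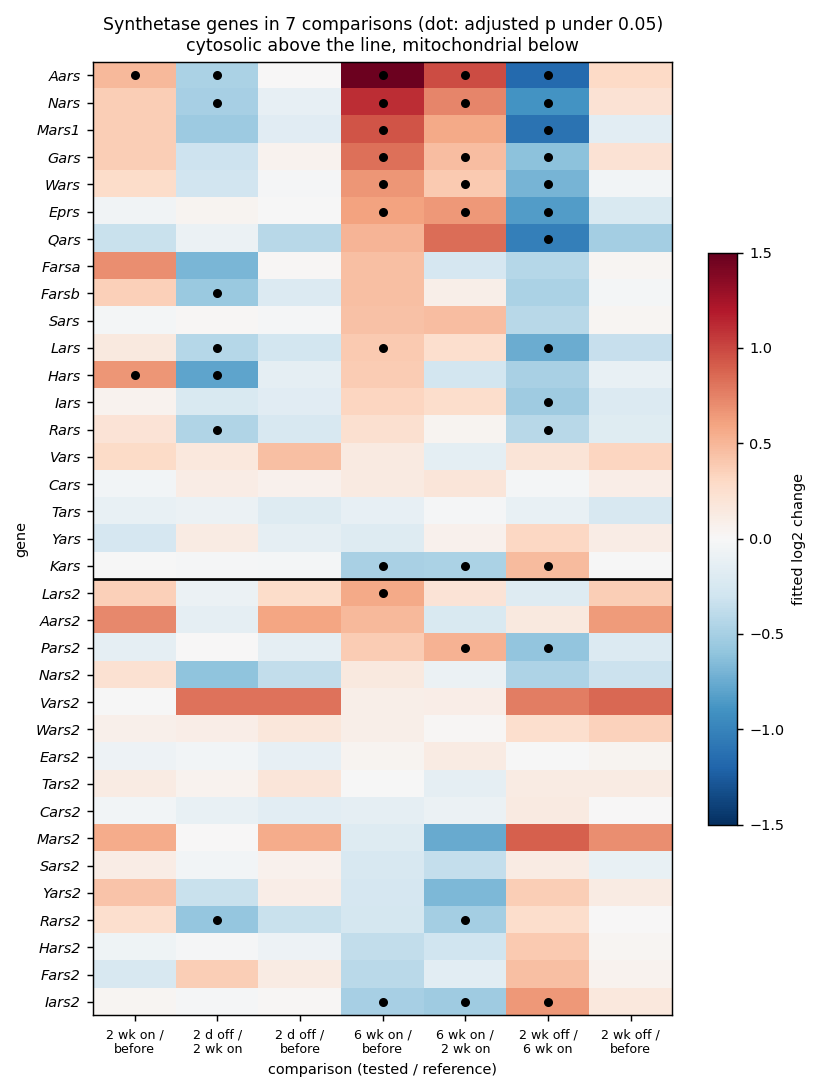
Fitted log2 change of the 35 synthetase genes (rows, cytosolic above the line, mitochondrial below, each sorted by the change at 6 weeks) in the 7 comparisons (columns, the group named first over the group named second). Black dots mark an adjusted p under 0.05; the column of late-induced over uninduced hearts has 7 dots on red among the cytosolic genes, and the last column has none.

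Among the cytosolic enzymes outside the multisynthetase complex, Aars, which charges the alanine tRNA, had the largest change in late-induced against uninduced hearts. Its signal was 2604, 2098 and 2657 in late-induced hearts, against 1090, 821.3, 768.7 and 763 in uninduced hearts. Early-induced hearts read 1586, 912.6, 1176 and 1274, and early-repressed hearts 768.5, 849.9, 900.5 and 921.6. Late-repressed hearts read 1027, 984.2 and 1189, so that the late-induced hearts stood above all others with no overlap, while the early-induced and uninduced hearts overlapped. The fit gave a log2 change of 1.47 ± 0.16 (SE) in late-induced against uninduced hearts, a 2.76-fold difference (adjusted p = 7.03e-06). It was 0.98 ± 0.16 against early-induced hearts (adjusted p = 0.00157) and -1.16 ± 0.17 in late-repressed against late-induced hearts (adjusted p = 0.000255).

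Nars, the asparagine enzyme, was also highest in the late-induced hearts. Its signal was 2620, 2338 and 2283 in late-induced hearts, against 1384, 1068, 1063 and 901.6 in uninduced hearts and 1613, 1145, 1462 and 1538 in early-induced hearts. Early-repressed hearts read 1013, 1076, 873.2 and 1045, below each early-induced heart, and late-repressed hearts read 1404, 1150 and 1277, below each late-induced heart. On the log2 scale the change was 1.11 ± 0.14 (SE) in late-induced against uninduced hearts (adjusted p = 3.87e-05), -0.50 ± 0.13 on early repression (adjusted p = 0.0143) and -0.89 ± 0.15 on late repression (adjusted p = 0.000756).

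Gars, the glycine enzyme of both compartments, had signals of 3322, 2470 and 2208 in late-induced hearts, against 1484, 1432, 1476 and 1432 in uninduced hearts. Every late-induced heart was above every heart of the other groups, and the first of them was well above the other two. Late-repressed hearts read 1557, 1649 and 1894, below the late-induced hearts and above the uninduced hearts. The fitted log2 change was 0.83 ± 0.13 (SE) in late-induced against uninduced hearts (adjusted p = 0.000317) and -0.62 ± 0.14 on late repression (adjusted p = 0.00576). At 2 weeks the early-induced hearts read 2107, 1832, 1686 and 1950, without overlap with the uninduced hearts, but the log2 change of 0.36 ± 0.12 was not called (adjusted p = 0.0780).

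Wars charges the tryptophan tRNA and is known to be induced by interferon. Its signal was 2132, 1549 and 1688 in late-induced hearts, against 1115, 1169, 1142 and 987.4 in uninduced hearts. Late-repressed hearts, at 1017, 1177 and 1032, overlapped with the uninduced ones. The log2 change was 0.66 ± 0.11 (SE) in late-induced against uninduced hearts (adjusted p = 0.00054) and -0.70 ± 0.12 on late repression (adjusted p = 0.000851).

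Hars, the histidine enzyme, was called at 2 weeks and not at 6 weeks. Its signal was 1053, 941, 927.1 and 1045 in early-induced hearts, against 724.8, 667.4, 645 and 435.4 in uninduced hearts, with no overlap. Early-repressed hearts read 598.9, 610.6, 411.9 and 605.5, and every one of them was below every early-induced heart. The fit gave a log2 change of 0.66 ± 0.16 (SE) at 2 weeks (adjusted p = 0.0161) and -0.79 ± 0.16 after 2 days of repression (adjusted p = 0.00307). In late-induced hearts it read 669.1, 734.4 and 1073, with the second heart just above the uninduced range and the third well above it, and the log2 change of 0.38 ± 0.18 against uninduced hearts was not called (adjusted p = 0.128). The difference between the late and the early change, -0.28 ± 0.18, was not called either (adjusted p = 0.392). The other Hars probe set (1417024_at) read 570.3, 494.4, 554.4 and 505.9 in early-induced hearts, and 478.9, 438.1 and 295.1 in late-induced hearts. Both groups overlapped with the uninduced hearts, at 449.5, 423.7, 514.4 and 388.9.

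**Figure D3:**
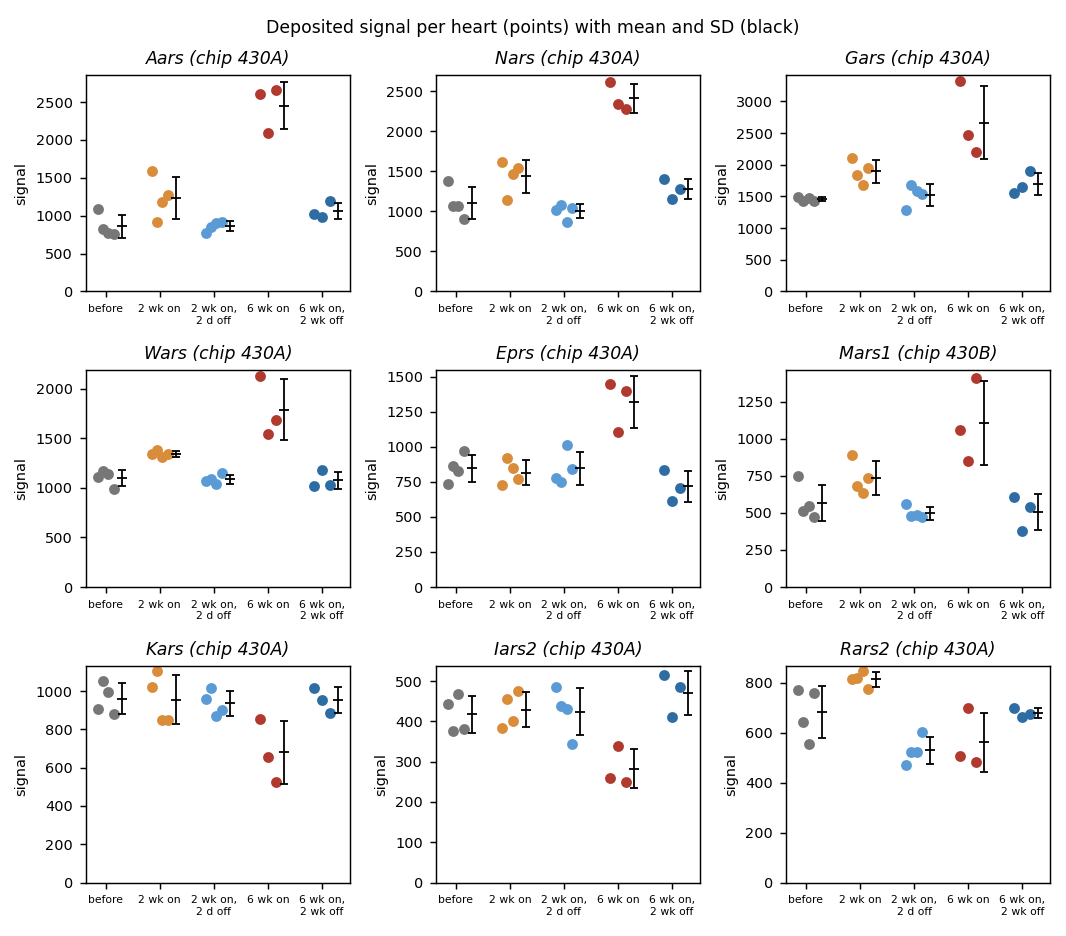
Deposited signal (y axis, starting at 0) of 9 synthetase genes in each heart (points), with the group mean and SD in black, by the state of the Akt1 transgene in time order (x axis). Aars, Nars, Gars, Wars, Eprs and Mars1 are highest in the late-induced hearts, where Kars and Iars2 have their lowest group means.

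Of the genes of the multisynthetase complex, Eprs encodes one protein that charges both glutamate and proline tRNAs. Its signal was 1449, 1108 and 1401 in late-induced hearts, against 737.9, 861.1, 827.1 and 970.8 in uninduced hearts, with no overlap. Early-induced hearts, at 725.4, 924.1, 849.6 and 770.5, lay within the uninduced range but for one just below it. On the log2 scale the change was 0.60 ± 0.14 (SE) in late-induced against uninduced hearts (adjusted p = 0.00579), 0.66 ± 0.14 against early-induced hearts (adjusted p = 0.0097) and -0.83 ± 0.15 on late repression (adjusted p = 0.0012).

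Mars1, the methionine enzyme that charges initiator tRNA as well, was measured on chip 430B. Its signal was 1062, 852.2 and 1413 in late-induced hearts, against 746.4, 512.5, 543.7 and 470.3 in uninduced hearts, with the third late-induced heart the highest and no overlap. The late-repressed hearts read 609.8, 375.3 and 540.1. The fitted log2 change was 0.94 ± 0.19 (SE) in late-induced against uninduced hearts (adjusted p = 0.00536) and -1.10 ± 0.21 on late repression (adjusted p = 0.0045). Without the uninduced hearts with Xist signal the first of these was 0.80 and was not called (adjusted p = 0.0742).

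Lars charges leucine tRNA and also acts as a leucine sensor for mTORC1. It read 1668, 1275 and 1604 in late-induced hearts, against 1284, 1124, 1153 and 983.5 in uninduced hearts, and the second late-induced heart lay within the uninduced range. It read 917.8, 832.7 and 888.6 in late-repressed hearts, below all uninduced hearts. The log2 change was 0.40 ± 0.12 (SE) in late-induced against uninduced hearts (adjusted p = 0.0279), a call lost in 6 of 17 alternatives, and -0.74 ± 0.13 on late repression (adjusted p = 0.000977), a call kept in each of 15. At 6 weeks it was 0.35 without the third late-induced heart (adjusted p = 0.0895) and 0.31 without the uninduced hearts with Xist signal (adjusted p = 0.190). Lars also fell on early repression, by 0.43 on the log2 scale (adjusted p = 0.0145), with 926.6, 1002, 787.3 and 998.1 in early-repressed hearts, against 1331, 1164, 1280 and 1274 in early-induced hearts.

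Rars, the arginine enzyme, was called only when the transgene was repressed. It read 700.3, 692.7, 687.3 and 770.2 in early-repressed hearts, against 1012, 940, 1019 and 998.5 in early-induced hearts. It read 713.7, 725 and 809.5 in late-repressed hearts, against 1063, 1041 and 953.9 in late-induced hearts. Neither pair of groups overlapped, and the log2 changes were -0.45 ± 0.10 (SE) (adjusted p = 0.00353) and -0.42 ± 0.11 (adjusted p = 0.0123).

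Iars, the isoleucine enzyme, and Qars, the glutamine enzyme, were called only on late repression. Iars read 852.9, 777 and 777.9 in late-repressed hearts, against 1222, 985.7 and 1364 in late-induced hearts, a log2 change of -0.53 ± 0.16 (SE) with no overlap (adjusted p = 0.0302). This call was lost in 5 of 15 alternatives, among them leaving out the third late-induced heart (-0.43, adjusted p = 0.124). The other Iars probe set (1452154_at) did not fall. It read 1055, 853.2 and 1160 in late-repressed hearts, against 1034, 678.7 and 371.9 in late-induced hearts, with overlap. Qars read 604.7, 965.2 and 523.9 in late-repressed hearts, against 969.6, 1364 and 2158 in late-induced hearts. Its late-induced hearts were spread widely and the groups missed overlapping by little. The fit gave a log2 change of -1.02 ± 0.33 (adjusted p = 0.0372), and without the third late-induced heart it was -0.73 and was not called (adjusted p = 0.187).

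Kars, the lysine enzyme of both compartments, fell in late-induced hearts, where Eprs, Lars and Mars1 rose. It read 855.7, 656.5 and 527.1 in late-induced hearts, against 908.8, 1055, 997.1 and 879.2 in uninduced hearts. All late-induced hearts were below the uninduced ones, the first by little. Late-repressed hearts read 1019, 954 and 884.4. On the log2 scale the change was -0.49 ± 0.14 (SE) in late-induced against uninduced hearts (adjusted p = 0.0195) and 0.48 ± 0.15 on late repression (adjusted p = 0.0330). Without the third late-induced heart the values were -0.33 (adjusted p = 0.117) and 0.32 (adjusted p = 0.169), and with median-scaled arrays they were -0.29 (adjusted p = 0.181) and 0.34 (adjusted p = 0.156). Without the uninduced hearts with Xist signal the first was -0.52 and was not called (adjusted p = 0.0714).

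The cytosolic genes were also set out by complex and by enzyme class. Of the 7 genes of the complex, 3 rose and 1 fell in late-induced against uninduced hearts, with a median log2 change of 0.40, and of the 12 genes outside it 4 rose and 0 fell, with a median of 0.44. The 9 class I genes had a median of 0.32 and the 9 class II genes one of 0.45, Eprs having both kinds of active site. On late repression 6 of 7 genes of the complex fell and Kars rose, with a median of -0.74, and 4 of 12 outside it fell, with a median of -0.45. The shares of all genes called were 7.58% higher and 8.14% lower in late-induced against uninduced hearts. They were 7.19% higher and 5.53% lower on late repression. Whether the sets of cytosolic genes differ was not tested. Without Gars and Kars, 6 of 17 cytosolic genes rose in late-induced hearts and 0 fell.

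Of the mitochondrial enzymes, 4 were called in at least 1 comparison. Rars2, the arginine enzyme, read 469.5, 521.7, 522.4 and 601.1 in early-repressed hearts, against 813.2, 819.4, 848.1 and 773.6 in early-induced hearts. It read 508.1, 697.1 and 480.7 in late-induced hearts, and each of these was below each early-induced heart. The fitted log2 change was -0.58 ± 0.13 (SE) on early repression (adjusted p = 0.0046), and -0.51 ± 0.14 in late-induced against early-induced hearts (adjusted p = 0.0310), a call lost with median-scaled arrays, with the replicate block and without the third late-induced heart, among others.

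Iars2, the mitochondrial isoleucine enzyme, read 259.4, 338.4 and 250.1 in late-induced hearts, against 444.4, 375.9, 468.1 and 381.5 in uninduced hearts. It read 515.7, 410.9 and 484.2 in late-repressed hearts, and neither set overlapped with the late-induced hearts. The log2 change was -0.50 ± 0.14 (SE) in late-induced against uninduced hearts (adjusted p = 0.0192) and 0.65 ± 0.15 on late repression (adjusted p = 0.00635). The first was lost in 7 of 17 alternatives, among them median scaling (-0.32, adjusted p = 0.180) and leaving out the third late-induced heart (-0.43, adjusted p = 0.0785) or the uninduced hearts with Xist signal (-0.47, adjusted p = 0.0967).

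Pars2 was called higher against early-induced hearts and Lars2 against uninduced hearts. Pars2, the mitochondrial proline enzyme, read 345.7, 277.9 and 263.8 in late-induced hearts, against 201.3, 197.4, 198.6 and 165.5 in early-induced hearts, a log2 change of 0.52 ± 0.14 (SE) (adjusted p = 0.0339), a call lost in 8 of 15 alternatives. It fell on late repression to 195.3, 192.9 and 152 in late-repressed hearts, a change of -0.59 ± 0.15 (adjusted p = 0.0117). Lars2, the mitochondrial leucine enzyme, on chip 430B, read 843.8, 744 and 976.6 in late-induced hearts, against 554.1, 477.7, 642.7 and 620.3 in uninduced hearts. These did not overlap, and the log2 change was 0.57 ± 0.13 (adjusted p = 0.0132). Another of its probe sets (1439225_at) was lower, at 103.8, 121.8 and 121.8, against 218.8, 207, 206.3 and 230.7, also with no overlap. That change of -0.83 was not called. Without the third late-induced heart the change of the representative probe set was 0.47 and was not called (adjusted p = 0.0682). Its signal of 845.6, 696.3 and 693.6 in late-repressed hearts still lay above all uninduced hearts, but that log2 change of 0.37 ± 0.13 was not called (adjusted p = 0.170).

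The remaining 18 genes, 6 cytosolic and 12 mitochondrial, were called in no comparison by their representative probe set. Among the cytosolic ones these were Cars, Farsa, Sars, Tars, Vars and Yars, with log2 changes from -0.19 to 0.45 in late-induced against uninduced hearts. The mitochondrial ones ran from -0.40 for Fars2, the phenylalanine enzyme, to 0.49 for Aars2, the alanine enzyme. Of all 35 genes, 8 of 19 cytosolic and 4 of 16 mitochondrial ones had no overlap between the late-induced and the uninduced hearts, against 22.6% of all genes.

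Pairs of enzymes for the same amino acid set the compartments side by side. There were 15 pairs over 14 amino acids, with Fars2 standing against both Farsa and Farsb, the subunits of the cytosolic phenylalanine enzyme. In late-induced against uninduced hearts the cytosolic change exceeded the mitochondrial one in 13 of 15 pairs, with a median difference of 0.68 log2 units. By representative probe sets, Iars changed by 0.32 ± 0.15 (SE), against -0.50 ± 0.14 for Iars2, and Aars by 1.47, against 0.49 for Aars2. The exceptions were leucine, with 0.40 for Lars and 0.57 for Lars2, and threonine, with -0.13 for Tars and -0.0051 for Tars2. The other probe sets of the isoleucine pair overlapped between these groups. That of Iars (1452154_at) read 1034, 678.7 and 371.9 in late-induced hearts, against 925.2, 740.1, 805 and 604.3 in uninduced hearts. That of Iars2 (1441665_at) read 124.5, 192.1 and 219.3, against 144.1, 124.9, 115.1 and 59.33. In early-induced against uninduced hearts the cytosolic change was greater in 7 of 15 pairs. On late repression it was greater in 0 of 15, with a median difference of -0.69. The pairs share hearts, and the pair differences were not tested.

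**Figure D4:**
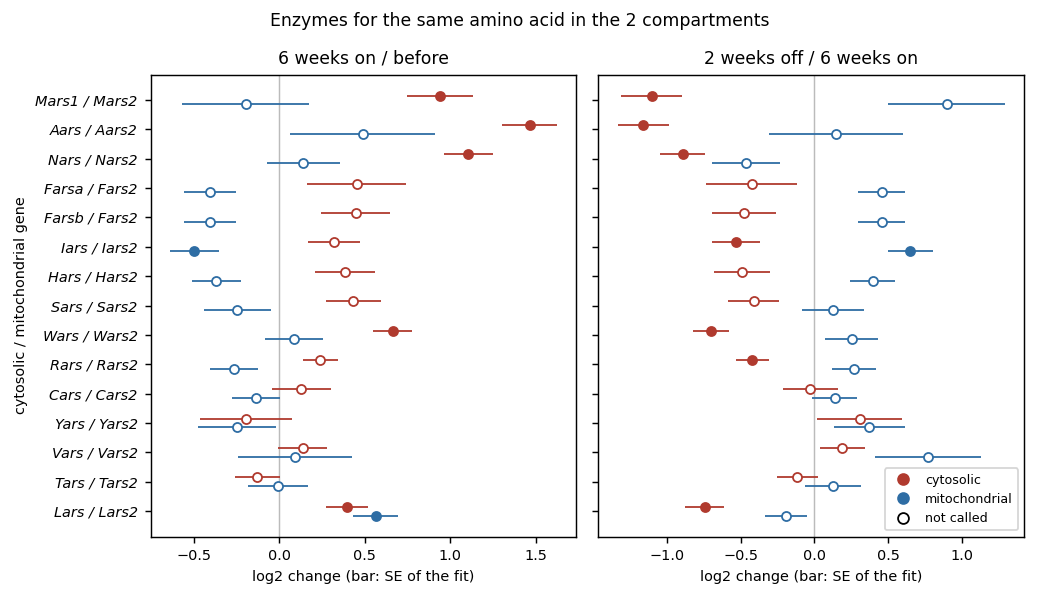
Log2 change (x axis, bars are the SE of the fit) of the cytosolic (red) and mitochondrial (blue) enzymes of 15 pairs (rows), in late-induced over uninduced hearts (left) and late-repressed over late-induced hearts (right). Filled points have an adjusted p under 0.05; red lies right of blue in 13 of 15 rows on the left and in 0 of 15 on the right.

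Probe sets of 1 gene did not all move together. A second Aars probe set (1423685_at) had a log2 change of 1.11 in late-induced against uninduced hearts (adjusted p = 0.000164), close to its representative, and a second Wars probe set (1437832_x_at) one of 0.42 (adjusted p = 0.0277). The remaining Wars probe sets were not called. Of them, 1415694_at was higher in every late-induced heart than in any uninduced heart on both chips. Wars probe set 1425106_a_at overlapped, at 148.9, 115.4 and 71.2 in late-induced hearts, against 134.7, 167, 98.8 and 124.3 in uninduced hearts. Sars, the serine enzyme, was not called by its representative (0.43, adjusted p = 0.0604), whereas its other probe set (1452000_s_at) read 936, 936.1 and 1495 in late-induced hearts, against 651.6, 679.8, 440.3 and 467.7 in uninduced hearts, and was called higher by 0.93 ± 0.18 log2 units (adjusted p = 0.00162). The other Nars probe set (1428666_at) had 0.35 and was not called, nor were the other 3 of Eprs. For Farsb, whose representative stood at 0.45, the other probe sets stood at -0.45 and -0.18, and none of the 3 was called there.

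Qars and Iars2 had probe sets that were called in opposite directions. The Qars probe set 1423712_a_at read 723.1, 687.4 and 625.9 in late-induced hearts, against 879.6, 918.4, 856.3 and 925.8 in uninduced hearts. Its change was -0.38 ± 0.13 (SE) there (adjusted p = 0.0397) and 0.49 ± 0.13 on late repression (adjusted p = 0.0156), where the representative fell. The Iars2 probe set 1441665_at on chip 430B rose by 1.34 ± 0.26 in late-induced against early-induced hearts (adjusted p = 0.0123), where the representative had -0.53 ± 0.14. This probe set also read 130.6, 151.1, 101.1 and 159.4 in early-repressed hearts, against 77.19, 56.84, 54.48 and 59.7 in early-induced hearts, with no overlap. On chip 430B a Cars2 probe set (1431778_at) had a change of -1.22 in late-induced against uninduced hearts (adjusted p = 0.0479), while the representative of this mitochondrial cysteine enzyme was at -0.13 and not called. Which transcripts these probe sets match was not tested.

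**Figure D5:**
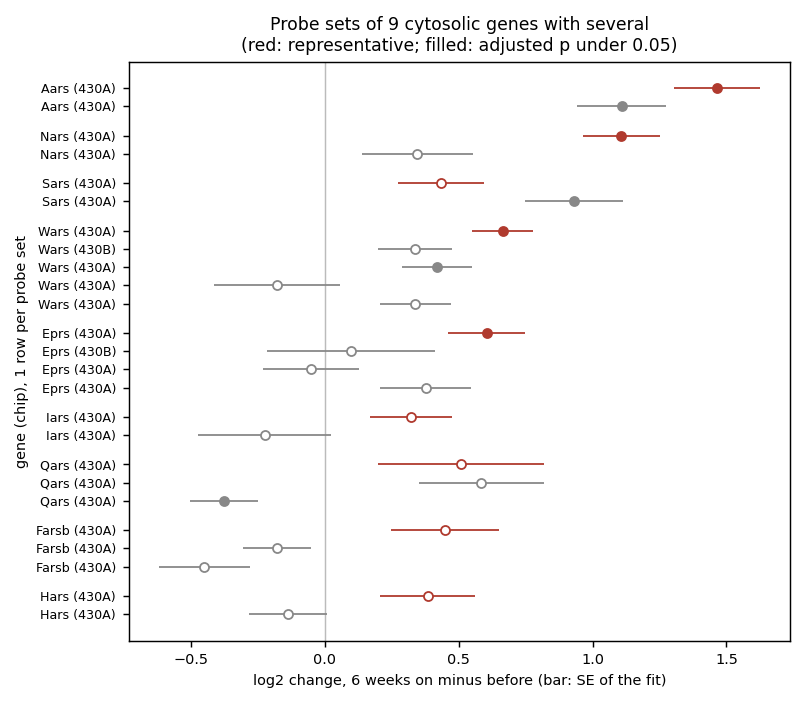
Log2 change in late-induced minus uninduced hearts (x axis, bars are the SE of the fit) for each tested probe set of 9 cytosolic genes with several (rows, with the chip). Red marks the representative, grey the others, and filled points have an adjusted p under 0.05; both Aars probe sets are filled above 0, while Qars has 1 filled point below 0.

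Promoters were examined because ATF4 and its C/EBP partners bind a known element with the core TGATGNAA. RefSeq promoters of build GRCm38.p6, from 250 bases before to 50 after the gene start, were at hand for 26 of the 35 genes, 12 cytosolic and 14 mitochondrial. TGATGNAA, searched on both strands, was found in 5 of 12 cytosolic promoters (Aars, Gars, Iars, Tars and Yars) and in 0 of 14 mitochondrial ones, against 4.51% of the promoters of 27025 genes. Aars and Gars rose in late-induced hearts, and Iars fell on late repression by its representative probe set only. Tars and Yars, the threonine and tyrosine enzymes, were called in no comparison. Eprs and Mars1 rose in late-induced hearts with no match in their windows. The sequences of Aars and Gars are shown as genes with a match that rose, that of Mars1 as one without a match that rose, and that of Yars as one with a match that was not called. Capitals mark the matches, which lie on the opposite strand in Aars and Gars, with their first base at -112 and 10 from the start in Aars, at -30 in Gars and at 4 in Yars. Aars lies at chr8:111033592-111033891 (plus strand), Gars at chr6:55037751-55038050 (plus), Yars at chr4:129189653-129189952 (plus) and Mars1 at chr10:127311737-127312036 (minus).
Aars: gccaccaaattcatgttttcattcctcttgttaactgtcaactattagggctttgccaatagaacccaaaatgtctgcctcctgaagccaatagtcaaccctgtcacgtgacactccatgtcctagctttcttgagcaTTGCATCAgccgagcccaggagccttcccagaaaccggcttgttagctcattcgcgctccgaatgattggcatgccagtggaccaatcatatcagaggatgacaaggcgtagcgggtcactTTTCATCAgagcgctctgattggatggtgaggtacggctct
Gars: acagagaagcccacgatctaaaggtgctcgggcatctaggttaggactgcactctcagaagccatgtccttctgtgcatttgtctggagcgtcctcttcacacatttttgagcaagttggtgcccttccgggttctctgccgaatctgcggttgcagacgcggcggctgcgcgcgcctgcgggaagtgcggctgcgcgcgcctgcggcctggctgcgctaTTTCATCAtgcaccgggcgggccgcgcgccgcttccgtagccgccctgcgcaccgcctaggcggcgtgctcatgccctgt
Yars: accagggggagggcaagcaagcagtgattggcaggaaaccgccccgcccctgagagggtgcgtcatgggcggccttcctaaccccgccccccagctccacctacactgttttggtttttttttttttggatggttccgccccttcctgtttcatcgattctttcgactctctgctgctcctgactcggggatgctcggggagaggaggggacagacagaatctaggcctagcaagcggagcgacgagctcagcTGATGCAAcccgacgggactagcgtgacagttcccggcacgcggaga
Mars1: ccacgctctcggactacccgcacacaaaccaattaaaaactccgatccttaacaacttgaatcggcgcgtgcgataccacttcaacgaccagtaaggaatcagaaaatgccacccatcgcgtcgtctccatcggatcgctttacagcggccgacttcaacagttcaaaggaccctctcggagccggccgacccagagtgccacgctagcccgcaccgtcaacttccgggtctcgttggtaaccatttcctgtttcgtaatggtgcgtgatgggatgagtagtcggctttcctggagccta

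Other motifs were searched in the same windows on both strands, and no match to one overlapped a match to another. The E-box CACGTG was found in 4 of 12 cytosolic and 1 of 14 mitochondrial promoters, against 8.09% of all genes. The CCAAT box, bound by NF-Y, was in 7 of 12 and 6 of 14, against 41.1%. The palindromic core of the NRF1 motif was in 3 of 12 and 2 of 14, against 5.19%, and the ETS core ACTTCCGG in 2 of 12 and 1 of 14, against 4.31%. TGACGTCA, the cyclic AMP response element, was in none of either, against 2.03%. A match says only that these letters stand in the window.

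Genes of the amino acid response beyond the synthetases were also followed. Of 27 tested genes of that list, 9 rose and 1 fell in late-induced against uninduced hearts, with a median log2 change of 0.42, beside 15.7% called and a median of -0.05 over all genes. The enzyme Mthfd2, of mitochondrial one-carbon metabolism, averaged 2045 ± 1586 in late-induced hearts and 140.2 ± 25.1 in uninduced hearts (SD, n = 3 and 4), a log2 change of 3.22 (adjusted p = 2.58e-06). Ddit4, an inhibitor of mTORC1, averaged 4125 ± 1081 and 506.8 ± 115 in the same groups, a log2 change of 2.90 (adjusted p = 2.35e-07), and the transcription factor Atf5 averaged 1806 ± 395 and 976.1 ± 61.1 (adjusted p = 0.000393). The 1 gene that fell, named after its values were seen, was the neutral amino acid carrier Slc1a4 (-0.92, adjusted p = 0.0191). In late-induced against early-induced hearts 8 of 27 rose and 0 fell, against 2.35% of all genes higher and 2.82% lower. On late repression 1 rose and 7 fell, against 7.19% of all genes higher and 5.53% lower. In early-induced against uninduced hearts 1 rose and 2 fell, against 3.69% of all genes higher and 2.9% lower.

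Atf4 itself was not called by its representative probe set in any comparison. That probe set averaged 1738 ± 225 in late-induced hearts and 1232 ± 117 in uninduced hearts (SD, n = 3 and 4), a log2 change of 0.48 ± 0.17 (SE) (adjusted p = 0.0524). A second probe set (1438992_x_at) read 375.5, 270.5 and 845.6 in late-induced hearts, against 227.1, 325.8, 320.4 and 241.3 in uninduced hearts, with only the third late-induced heart, that of the high actin ratio, far above the others. It was called lower on late repression, at -1.07 ± 0.28 (adjusted p = 0.0116), and on early repression, at -0.83 ± 0.24 (adjusted p = 0.0229). The part of RNA quality in these values was not tested.

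Of genes for other steps of tRNA supply, more were called lower than higher after 6 weeks. Of 28 tested genes of tRNA maturation, 1 rose and 7 fell in late-induced against uninduced hearts, against 7.58% of all genes higher and 8.14% lower, with a median log2 change of -0.23. Among those that fell were the tRNA methyltransferase Trdmt1 (-1.07, adjusted p = 0.0015), the tRNA adenosine deaminase subunit Adat2 (-0.67, adjusted p = 0.00183) and the alanyl-tRNA editing protein Aarsd1 (-0.70, adjusted p = 0.00326). On late repression 4 rose and 0 fell, against 7.19% of all genes higher and 5.53% lower. Of 18 tested genes of RNA polymerase III, which transcribes tRNA genes, Polr3e (0.54) and Polr3k (0.62) rose in late-induced hearts and 0 fell, a share near that of all genes. Of 5 scaffolds and elongation-factor partners of the synthetases, 0 rose and 2 fell in late-induced hearts, Eef1a1 (-0.53) and Eef1b2 (-0.42). On early repression 3 of these 5 fell, against 5.36% of all genes, among them the scaffolds Eef1e1 (-0.88) and Aimp2 (-0.38).

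Mitochondrial translation beyond the synthetases was mixed. Of 21 tested genes, 2 rose and 5 fell in late-induced against uninduced hearts, set beside the same shares of all genes, with a median log2 change of -0.11. The mitochondrial transcription factor Tfb2m (-0.66, adjusted p = 0.000802) fell, as did Gatb, a subunit of the enzyme that makes mitochondrial glutaminyl-tRNA (-0.67, adjusted p = 0.00643), while the mitochondrial RNA polymerase Polrmt rose by 0.97 (adjusted p = 0.001). On late repression Polrmt fell (-1.03), and 1 gene of the list rose and 2 fell, against 7.19% of all genes higher and 5.53% lower.

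Markers of other cells were measured in the same hearts. In late-induced against uninduced hearts 7.58% of all genes were called higher and 8.14% lower. Of 6 endothelial markers, 0 rose and 3 fell in that comparison (Pecam1, Kdr and Tek). The summed signal of the 6 was 3695 to 4823 in late-induced hearts, against 5116 to 6226 in uninduced hearts. Of 7 fibroblast markers, Postn (2.80), Col1a1 (1.12) and Col3a1 (0.69) rose and 0 fell, while the other 4 were at -0.50 to -0.02 and the median was -0.02. Their sums, in which Postn averaged 5085 ± 1407 in late-induced hearts and 695 ± 206 in uninduced hearts (SD, n = 3 and 4), were 32210 to 40190 in late-induced hearts, against 24950 to 31010 in uninduced hearts. The same 3 markers rose in early-induced against uninduced hearts, where 3.69% of all genes were called higher. The sums were 32870 to 42890 in early-induced hearts. In late-induced against uninduced hearts 0 of 6 tested leukocyte markers were called, and of 5 smooth muscle and pericyte markers 0, with sums of 4152 to 5006 and 11600 to 15360 in late-induced hearts, against 4162 to 5574 and 10710 to 13560 in uninduced hearts. On late repression 3 endothelial, 2 fibroblast and 2 leukocyte markers rose, against 7.19% of all genes. The summed atrial markers were 5697 to 16700 in late-induced hearts, against 1805 to 66540 in uninduced hearts. Of 2 tested erythroid markers 1 fell, the 1 tested adipocyte marker was not called, and no nerve marker had a tested probe set. The part of these cells in the synthetase values was not tested.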

How the data were processed

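RNA of 18 mouse hearts was hybridised to 2 Affymetrix chips each, 430A and 430B, giving 36 arrays. The deposited values are linear intensity values, 1 signal per probe set, made with MAS5 per the submitters' processing notes; the sources used here do not give its version. The arrays of a chip shared their 2% trimmed mean to within 0.006% (500.2 on 430A, 122.5 on 430B), so the signals were used as deposited. Symbols came from the platform's annotation. Arrays have no depth in counts, and their number limits the precision. Scan batches were not examined.

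Probe sets with a mean signal of at least 20% of the trimmed mean were kept, 15565 on chip 430A and 17519 on chip 430B. An offset of 10% of the trimmed mean was added before log2, which understates changes of dim probe sets. Each chip was fitted on its own by lmFit and trended eBayes of limma (3.58.1, under R 4.3.3) over all 18 hearts, each group having its own mean, and p-values were adjusted by Benjamini and Hochberg within a chip over all tested probe sets. Calls are adjusted p under 0.05. The model was tested on simulated data. The labels name individual mice as the source of each heart. Replicate numbers only name hearts: deviations of same-numbered hearts correlated from -0.152 to 0.326 on chip 430A, so no pairing was used.

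The rule for genes given heart by heart took the 16 with the smallest adjusted p among those called, and companion lists name up to 3 called genes a comparison. The members, lists and motifs were chosen with earlier results of these data known. Alternatives changed the offset, filter, scaling, spread, probe set choice and hearts.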

Additional observations from a re-analysis of the deposited data

Results flagged for a closer look

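In 7 of 105 groups of 4 hearts tested over the 35 genes (6.67%), 1 heart stood far from the other three, and chance gives about 1 in 20 such groups. In the third early-repressed heart Ears2, the mitochondrial glutamate enzyme, read 248.9 against 181.6 to 184.2 in the others of its group, and Hars read 411.9 against 598.9 to 610.6. Mars1 read 563.5 in the first early-repressed heart, against 472 to 483.1 in the others, and Rars 770.2 in the fourth, against 687.3 to 700.3. Pars2 read 165.5 in the fourth early-induced heart, against 197.4 to 201.3, and Yars 786 in the first, against 401.6 to 457.7. Mars2, the mitochondrial methionine enzyme, read 40.81 in the third uninduced heart, one of those with Xist signal, against 16.83 to 18.18.

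The change from uninduced hearts differed between 6 and 2 weeks of Akt1 for 9 genes, by the limma contrast of late-induced with early-induced hearts. The late log2 change exceeded the early one by 0.98 for Aars, 0.73 for Nars, 0.66 for Eprs, 0.52 for Pars2, 0.47 for Gars and 0.39 for Wars. It was below the early one for Iars2 (-0.53), Rars2 (-0.51) and Kars (-0.48).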

How the results depend on the processing

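With the representative probe sets, no call changed sign under any alternative of offset, filter, scaling, spread or hearts, and of 41 calls of single genes 15 were kept throughout. Other probe sets of Qars (0.49 on late repression, against -1.02) and Iars2 (1.34 in late-induced against early-induced hearts, against -0.53) were called in the opposite direction. Over 662 gene and setting combinations 134 lost a call. In early-induced against uninduced hearts, 1 gene was called without the filter, with median-scaled arrays, without the trend and with only the compared groups in the fit, 0 without the uninduced hearts with Xist signal, and 0 to 3 on leaving out single hearts (0 without the fourth uninduced heart; 1 without the second or the third uninduced heart or the first, the third or the fourth early-induced heart). In early-repressed against early-induced hearts, 11 genes were called with only the compared groups or when any probe set counted, and 4 to 6 on leaving out single hearts, 4 without the third early-repressed heart. In early-repressed against uninduced hearts 1 gene was called with the filter at 50%, and 0 to 1 on leaving out single hearts. In late-induced against uninduced hearts 6 genes were called with only the compared groups and without the uninduced hearts with Xist signal, and 6 to 12 on leaving out single hearts, 6 without the third late-induced heart. In late-induced against early-induced hearts 5 genes were called without the filter and with quantile normalization, 2 with only the compared groups, and 3 to 7 on leaving out single hearts (3 without the second or the third early-induced or the first late-induced heart, 4 without the fourth early-induced, 5 without the third late-induced). With the replicate block this comparison had 5 genes in place of 9, and the other counts stayed within 1.5 times; not all same-numbered hearts deviated together. In late-repressed against late-induced hearts 4 genes were called with only the compared groups. Calls over all 33084 tested probe sets moved too. With only the compared groups they went from 4361 to 2351 in late-induced against uninduced hearts. They went from 1342 to 360 in late-induced against early-induced hearts and from 3605 to 933 on late repression. On early repression they went from 3219 to 4358. Without the uninduced hearts with Xist signal they went from 1658 to 524 at 2 weeks and from 4361 to 2115 at 6 weeks. The cytosolic minus mitochondrial median in late-induced against uninduced hearts was 0.31 without the uninduced hearts with Xist signal, and, in alternatives chosen after seeing the data, 0.67 on chip 430A alone and 0.31 when tested probe sets were averaged per gene. Those 2 alternatives gave -0.0498 and -0.0401 in early-repressed against uninduced hearts, and averaging gave -0.52 on late repression, where leaving out single hearts gave -0.83 to -0.67. The causes were not tested. Dim probe sets, such as those of Mars2 and Vars2, limit what could be called.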
